A study of Mus musculus with 9 samples.

Results

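Chaperone genes were examined in fibroblasts of the mouse spleen and lymph node: the subunits of the CCT chaperonin, prefoldin, the Hsp90, Hsp70 and Hsp110, Hsp60 and Hsp10 and small heat shock protein families, the J proteins and the BAG cochaperones. They were taken by gene symbol from the protein-coding rows of a table of raw read counts, with the endoplasmic reticulum genes Hspa5 and Dnajb9 left out. This gave 84 of the 27370 genes of the table. Of these, 80 had enough reads to be tested, and 4 (Cct6b, Dnajb7, Dnajb8 and Hspa1l) did not. Members were 8 CCT genes, 5 prefoldin genes, 2 Hsp90 genes, 13 Hsp70 and Hsp110 genes, 2 genes for Hsp60 and Hsp10, 7 small heat shock protein genes, 41 J protein genes and 6 BAG genes. Most work in the cytosol, but the symbols also take in 10 genes listed here for mitochondria and 10 listed for the endoplasmic reticulum.

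The study sequenced polyA RNA of sorted fibroblasts in 9 libraries, 3 in each of 3 groups. The depleted RPF group holds red pulp fibroblasts, the reticular stroma of the splenic red pulp, from 6 mice given diphtheria toxin to remove macrophages. The steady RPF group holds the same cell type from 6 untreated mice, and the FRC group holds fibroblastic reticular cells from the lymph nodes of 6 untreated mice. All mice were 4 months old and carried Wt1CreERT2, RosatdTomato and CD64DTR, so the controls have the toxin receptor too but did not get the toxin. The RPF were sorted as tdTomato+ and the FRC as tdTomato-, both without CD45, so the RPF are only those cells in which Cre driven from Wt1 had recombined the reporter. The RNA of a library came from 2 mice pooled, and a group from 45000 sorted cells. The sources used here give neither dose nor timing of the toxin. With 12 mice in all, the FRC and the steady RPF came from the same untreated mice, but which libraries share mice is not given. The tests take libraries as replicates and as independent.

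CCT is a ring-shaped chaperonin that folds actin and tubulin in the cytosol, and prefoldin hands new chains to it. Hsp70 binds exposed stretches of many proteins, with J proteins choosing its clients and setting off its ATP hydrolysis and BAG and Hsp110 proteins releasing its nucleotide. Hsp90 matures kinases and steroid receptors, Hsp60 and Hsp10 form the chaperonin of the mitochondrial matrix, and small heat shock proteins hold unfolding proteins in solution. Many of these genes are switched on by the heat shock factor HSF1, which binds heat shock elements, inverted repeats of the unit GAA, in their promoters.

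Total counts ran from 25414645 in steady RPF replicate 3 to 43879806 in FRC replicate 3. Levels are TMM-normalised CPM, the reads of a gene scaled by the effective size of its library. Wt1, the driver of the sort, was at 62.1 CPM in steady RPF and 1.64 CPM in FRC, while Pdpn, which encodes the sort antigen gp38, was at 0.0981 CPM in steady RPF and 74.1 CPM in FRC. The macrophage genes Cd5l, C1qa and Adgre1 had 0 counts in the depleted RPF libraries. Summed over the 13 genes of the macrophage list, of which 9 were lower, levels were 2495 to 2801 CPM in depleted RPF and 3027 to 3412 CPM in steady RPF, mostly from Vcam1 and Axl, which fibroblasts also express. Sums over 4 further marker lists were lower in depleted RPF without overlap between the RPF groups, and the sum over a lymph node FRC list was higher without overlap. The 6 genes of the B and plasma cell list that were tested had 2 lower after depletion, with sums over the list of 82.5 to 120 CPM in depleted RPF and 182 to 378 CPM in steady RPF. No gene of the neutrophil list passed, but its sums were 2.39 to 43.6 CPM in depleted RPF and 46.4 to 303 CPM in steady RPF. The endothelial list, also with no gene past the test, had sums of 14.2 to 23.2 CPM in depleted RPF and 34.7 to 63.7 CPM in steady RPF. Genes that mark the red pulp fibroblasts of the sort (Wt1, Tcf21, Tlx1 and Nkx2-5) summed to 450.0 to 592 CPM in depleted RPF and 1150.1 to 1357 CPM in steady RPF, with Tcf21 lower and the other 3 not past the test. Fibroblast list sums were 4616 to 5298 CPM in depleted RPF and 5257 to 5943 CPM in steady RPF, with 1 gene higher and 3 lower, and these overlap. The lymph node FRC list (Cxcl13, Il7, Ccl19 and Ccl21a) summed to 148 to 255 CPM in depleted RPF and 87.6 to 144 CPM in steady RPF. Of its genes, Cxcl13 was higher, Il7 was lower and the others did not pass. The part of these lists in the chaperone results was not tested. Steady RPF replicate 1 and FRC replicate 1 had 24 and 69 Y-linked counts, against 2315 to 6124 in the other 7 libraries. Results without these 2 libraries are given with each comparison. In bulk RNA of this kind, fewer cells of a type and less RNA per cell cannot be told apart.

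Promoter sequences of 69 of the 84 genes were found in the RefSeq table for build GRCm38.p6, which spans 250 bases before to 50 bases after each annotated start. They were searched on both strands for a heat shock element of 2 units (GAANNTTC or TTCNNGAA) and for one of 3 units, which goes on after the shorter form with NNGAA or NNTTC and so contains it. The 3-unit form was found in 4 of the 69 genes (5.8%), against 179 of all 27025 genes with a promoter (0.662%). These 4 were Dnajb6, Hspd1, Hspe1 and Hsph1. The 2-unit form was found in 17 of the 69 (24.6%), against 17.0% of all genes. Among 7 CCT genes with a promoter, Cct2 and Cct5 held the 2-unit form and 0 held the 3-unit form. These 7 include the untested Cct6b but not Cct4, which had no promoter there. Hsp90aa1, Hsp90ab1, Hspa8 and Hspa9 had none either and were not searched. A match describes the letters and does not show a binding site. Bag3 held the 2-unit form at position 43 from its start, which is not printed, and Dnajb1 held neither form. Stretches around the matches of Hspd1, Cct2, Cct5, Dnajb4 and Hspa1a are printed 5′ to 3′ on the strand of the gene, with the matching bases in capitals.
Hspd1: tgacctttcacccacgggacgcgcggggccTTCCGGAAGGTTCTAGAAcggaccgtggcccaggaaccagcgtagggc
Cct2: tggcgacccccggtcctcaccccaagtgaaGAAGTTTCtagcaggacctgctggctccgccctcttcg
Cct5: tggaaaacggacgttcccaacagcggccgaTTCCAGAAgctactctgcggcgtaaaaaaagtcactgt
Dnajb4: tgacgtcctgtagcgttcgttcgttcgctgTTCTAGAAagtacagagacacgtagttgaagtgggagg
Hspa1a: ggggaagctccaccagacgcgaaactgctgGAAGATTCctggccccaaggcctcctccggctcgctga

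The Hspd1 stretch lies at chr1:55088029-55088106 on the minus strand and holds 2 overlapping 3-unit matches, which begin at positions -144 and -139 from the start of Hspd1. Hspe1 is transcribed the other way from the same region, and the same matches read on its strand begin at -89 and -84. Thus the genes of both mitochondrial chaperonin subunits share these letters. The Cct2 match lies at position -42 (chr10:117063380-117063447, minus strand) and the Cct5 match at -34 (chr15:31601843-31601910, minus strand). The Dnajb4 match is at -14 (chr3:152193822-152193889, minus strand) and the Hspa1a match at -104 (chr17:34972223-34972290, minus strand). The RefSeq start used for Dnajb4 lies inside the whole gene (chr3:152178511-152210302), not at its outer end. Those used for Hspd1 (chr1:55077835-55088243) and Cct2 (chr10:117051001-117063814) also lie inside the whole genes.

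The first comparison, depleted RPF against steady RPF, asks how red pulp fibroblasts differ after toxin given to remove macrophages. Since the controls did not get the toxin, effects of the toxin itself and of macrophage loss cannot be told apart. The CCT genes formed the clearest block: all 7 tested CCT genes rose, by 2.26- to 3.27-fold. The mitochondrial Hsp60 and Hsp10, the mitochondrial Hsp70 gene Hspa9, the Hsp110 gene Hspa4 and the Hsp90 genes Hsp90ab1 and Hsp90aa1 rose with them. Of 13 members known as HSF1-inducible, 5 rose (Hspa8, Hsp90aa1, Hspd1, Hspe1 and Dnajb4), 1 fell (Dnajb1) and 7 did not pass. Among the 7 were Hspa1a, Hspa1b, Hsph1, Dnaja1 and Bag3. Of the 13, 46.2% were called, against 21% of all tested genes. The calls for Hspa8, Hsp90aa1 and Dnajb1 were lost with some libraries left out. Of all 80 tested members, 20 rose and 6 fell at an adjusted p under 0.05 in edgeR's quasi-likelihood test with Benjamini-Hochberg adjustment. That is 32.5% called, against 21% of all 15103 tested genes, of which 11.1% were higher and 9.96% lower. Libraries of both groups did not overlap for 50 of the 80, against 44.4% of all tested genes. The median log2 fold change was 0.26 over the 80 genes and -0.093 over all tested genes. The share of all counts that fell on the 84 genes was 1.06% to 1.15% in depleted RPF and 0.684% to 0.780% in steady RPF. The same libraries differ in the sums of the neutrophil, B and plasma cell, endothelial, sort and lymph node FRC lists given above.

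**Figure D1:**
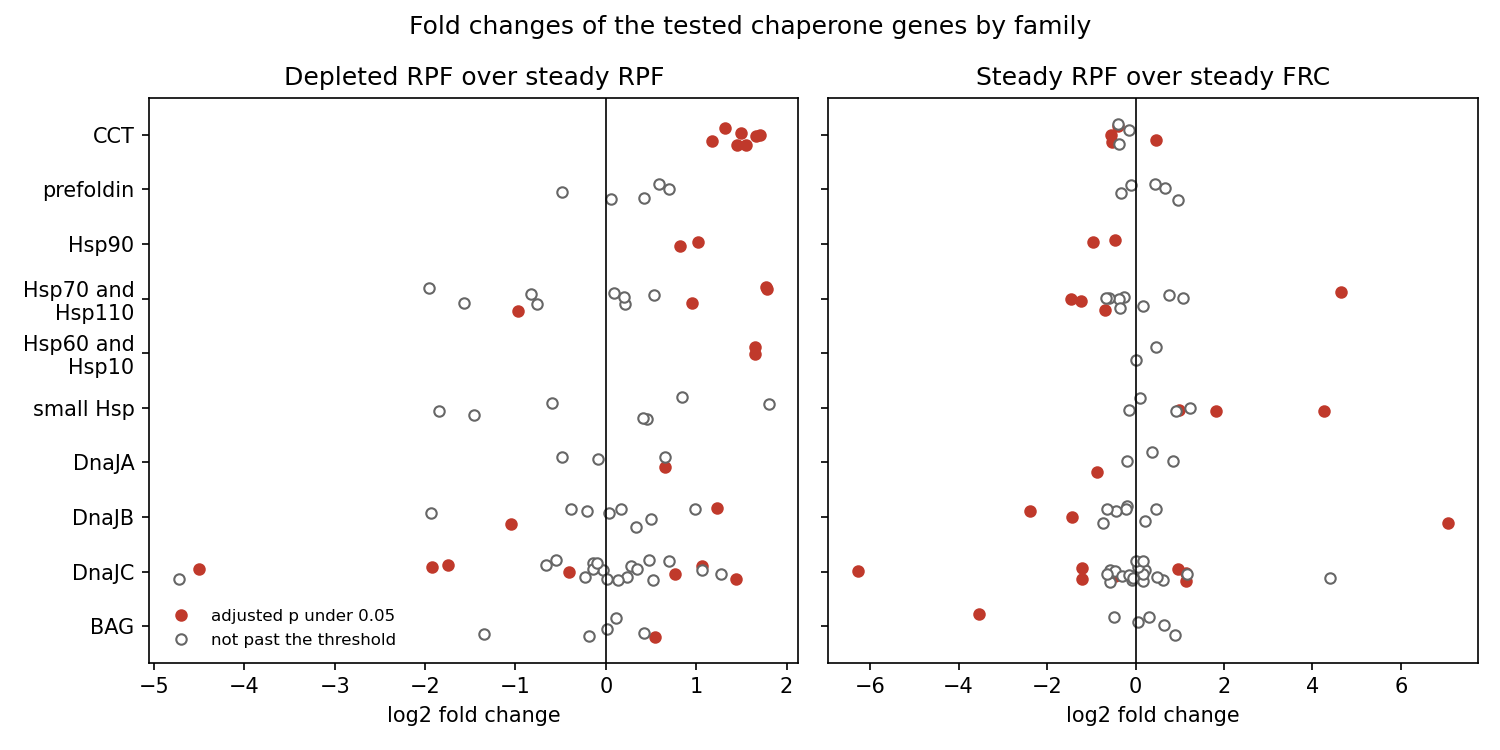
Log2 fold change of each tested chaperone gene (points), by family, for depleted over steady RPF (left) and steady RPF over steady FRC (right); filled points passed an edgeR adjusted p under 0.05. In the left panel the 7 CCT genes lie together between 1.18 and 1.71, while the 25 DnaJC genes spread on both sides of 0.

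CCT stacks 8 different subunits in each ring. Tcp1, which encodes the alpha subunit, had 379, 279 and 353 CPM in depleted RPF and 108, 91.8 and 109 CPM in steady RPF (log2 fold change 1.71, SE 0.15, adjusted p = 9.97e-05). Cct2, the beta subunit gene whose promoter letters are printed above, had 226, 238 and 265 CPM in depleted RPF and 88.7, 87.3 and 73.5 CPM in steady RPF (log2 fold change 1.55, SE 0.14, adjusted p = 1.06e-04). For both genes the lowest depleted library stood at more than 2 times the highest steady one. Cct3, the gamma subunit gene, had 754, 679.6 and 729.8 CPM in depleted RPF and 320.0, 317 and 319 CPM in steady RPF (log2 fold change 1.18, SE 0.11, adjusted p = 1.16e-04), the smallest fold of the 7. Cct4, which encodes the delta subunit, had 297, 285 and 314 CPM in depleted RPF, against 133, 117 and 109 CPM in steady RPF (log2 fold change 1.32, SE 0.11, adjusted p = 1.02e-04). The libraries of each group lay close together, and the groups did not overlap for either gene.

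Cct5, the epsilon subunit gene, had 987, 846 and 949 CPM in depleted RPF and 347, 291 and 345 CPM in steady RPF (log2 fold change 1.5, SE 0.11, adjusted p = 5.68e-05), the smallest p of all 80 genes. Cct7, the eta subunit gene, had 628, 556 and 599 CPM in depleted RPF and 246, 223 and 183 CPM in steady RPF (log2 fold change 1.45, SE 0.16, adjusted p = 3.12e-04). Cct8, the theta subunit gene, had 669, 670.0 and 630.4 CPM in depleted RPF and 238, 195 and 189 CPM in steady RPF (log2 fold change 1.66, SE 0.13, adjusted p = 6.59e-05). In these 3 genes, too, every depleted library was above every steady library. The 7 genes lie on 7 chromosomes, for example Cct5 at chr15:31590800-31601804, Cct8 at chr16:87483326-87495873 and Tcp1 at chr17:12915701-12925067 (mm10, whole genes). The 7 rises passed under every alternative setting and with each library left out, with adjusted p up to 0.00225 when 1 of the 6 RPF libraries was left out. Summed over the CCT genes, levels were 3553 to 3941 CPM in depleted RPF and 1324 to 1481 CPM in steady RPF.

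**Figure D2:**
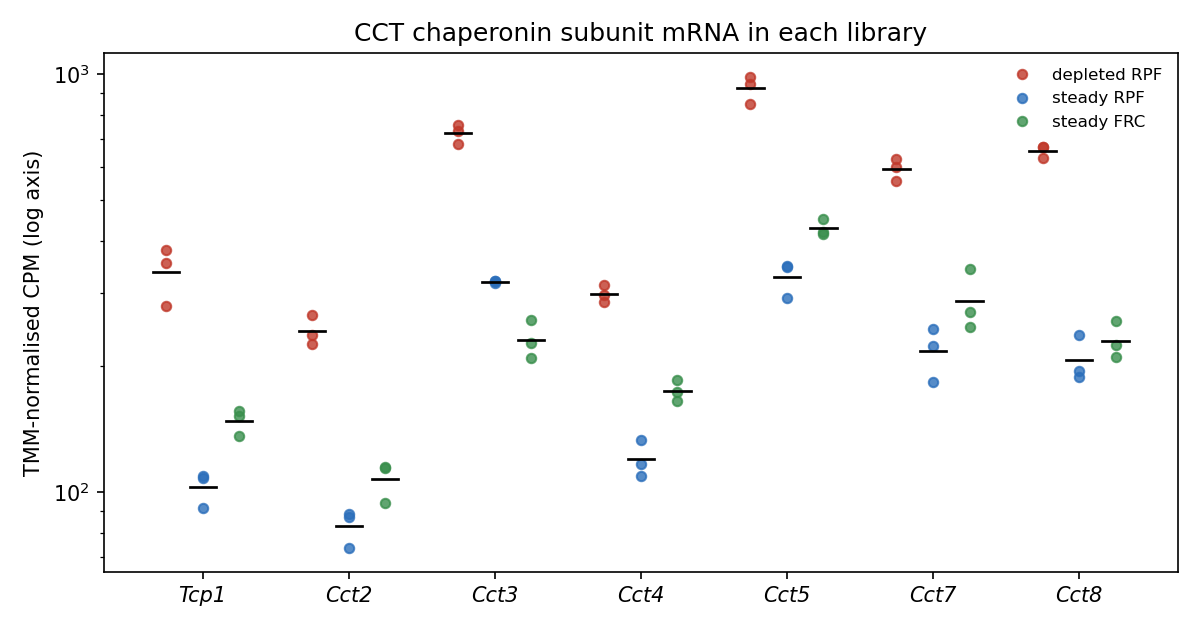
TMM-normalised CPM (log axis) of the 7 tested CCT genes in each library (points) of depleted RPF, steady RPF and steady FRC. For all 7 genes the 3 depleted RPF libraries lie above every library of the other groups.

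The zeta subunit is encoded by Cct6a and, as a testis form, by Cct6b. Cct6a stands in the table with the type of a processed transcript and so was not among the 84 genes. It had 560.0, 484 and 496 CPM in depleted RPF and 198, 136 and 192 CPM in steady RPF (log2 fold change 1.55, SE 0.17, adjusted p = 3.54e-04), with no overlap between the groups. Cct6b had 0 counts in the 3 depleted RPF libraries, 2, 115 and 0 in steady RPF, and 1, 74 and 0 in FRC, so its reads came almost wholly from replicate 2 of each steady group. Exons of Tcp1, Cct7 and Cct8 overlap exons of genes on the other strand for 2.8% (Tcp1 with Mrpl18), 3.16% (Cct7 with Pradc1) and 6.22% (Cct8 with Usp16) of their length in the GENCODE M21 annotation. Tcp1 also overlaps Acat3 for 11.35%, a gene at a mean of 0.172 CPM in depleted RPF and 0 in steady RPF. Since it is not known whether the counting used strand, reads in these stretches cannot be assigned with certainty.

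Of the 5 genes of prefoldin, which feeds CCT, 0 passed the test. Their log2 fold changes ran from -0.49 for Pfdn5 to 0.70 for Pfdn6. Libraries did not overlap for 3 of the 5, against 44.4% of all tested genes. Pfdn6 had 18.6, 23.3 and 18.7 CPM in depleted RPF and 11.3, 11.9 and 14.2 CPM in steady RPF (adjusted p = 0.0817). Among 16 further genes that work with CCT or prefoldin, 4 rose and 1 fell, which is 31.2% called, against 21% of all tested genes. Ruvbl2, an ATPase that assembles complexes with a prefoldin-like partner, rose to 119 ± 8.68 CPM in depleted RPF, against 42.6 ± 5.59 CPM in steady RPF (SD, n = 3 each, log2 fold change 1.48, SE 0.15, adjusted p = 2.36e-04). Ruvbl1, Pdrg1 and Txndc9 also rose, at log2 fold changes of 0.72, 0.60 and 1.19, and Pih1d1 fell at -0.96.

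Of 15 actin and tubulin genes, whose products CCT folds, 9 rose and 0 fell, with a median log2 fold change of 1.17. The share called was 60%, against 21% of all tested genes. Actb, the gene of cytoplasmic beta-actin, averaged 3829.8 ± 95.2 CPM in depleted RPF and 1148 ± 122 CPM in steady RPF (SD, n = 3 each, log2 fold change 1.74, SE 0.14, adjusted p = 7.61e-05). Tubb5 averaged 651 ± 73.0 CPM in depleted RPF and 180.4 ± 24.6 CPM in steady RPF (log2 fold change 1.85, SE 0.21, adjusted p = 4.34e-04). Tubb6, another beta-tubulin gene, had the largest fold of the list, with 1049.9 ± 29.9 CPM in depleted RPF and 64.1 ± 33.7 CPM in steady RPF (log2 fold change 4.03, SE 0.34, adjusted p = 9.97e-05). Acta2, the gene of smooth muscle alpha-actin, averaged 3536 ± 1009.8 CPM in depleted RPF and 255 ± 85.1 CPM in steady RPF (log2 fold change 3.79, SE 0.54, adjusted p = 0.00128). Actin and tubulin genes have close paralogs and pseudogenes, so the split of reads between them is uncertain.

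Hsp90ab1, the constitutive cytosolic Hsp90 gene, had 2013, 1976 and 1999 CPM in depleted RPF and 1104, 875 and 985 CPM in steady RPF (log2 fold change 1.01, SE 0.11, adjusted p = 3.37e-04). The depleted libraries lay within a narrow band above all steady ones, and the rise passed with each library left out. Hsp90aa1, the stress-inducible form, had 111, 83.8 and 89.6 CPM in depleted RPF and 62.7, 53.0 and 45.2 CPM in steady RPF (log2 fold change 0.82, SE 0.21, adjusted p = 0.0216), again with no overlap. Its adjusted p was 0.0796 without depleted replicate 1, 0.0735 without steady RPF replicate 2 and 0.0844 without steady RPF replicate 3.

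Of 23 cochaperones of Hsp90 and Hsp70 outside the 84 genes, 8 rose and 0 fell. That is 34.8% called, against 21% of all tested genes. Stip1, the adaptor Hop that links Hsp70 to Hsp90, averaged 570.4 ± 34.2 CPM in depleted RPF and 125 ± 23.9 CPM in steady RPF (SD, n = 3 each, log2 fold change 2.19, SE 0.15, adjusted p = 4.76e-05). Cdc37, which brings kinases to Hsp90, averaged 289 ± 11.7 CPM in depleted RPF and 189 ± 21.03 CPM in steady RPF (log2 fold change 0.61, SE 0.11, adjusted p = 0.00405), and the activator of the Hsp90 ATPase, Ahsa1, averaged 95.6 ± 4.73 CPM in depleted RPF and 58.1 ± 5.33 CPM in steady RPF (log2 fold change 0.72, SE 0.16, adjusted p = 0.0132). The others were the immunophilins Fkbp5 (log2 fold change 1.19) and Ppid (1.53), the mitochondrial import receptor gene Tomm70a (1.36), the Hsp70 nucleotide exchange factor gene Hspbp1 (1.11) and Nudc (0.73).

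In the Hsp70 and Hsp110 family, 3 of 12 tested genes rose and 1 fell, which is 33.3% called, against 21% of all tested genes. Hspa4, an Hsp110 gene whose product exchanges the nucleotide of Hsp70, had 237, 219.7 and 222 CPM in depleted RPF and 73.9, 79.1 and 45.7 CPM in steady RPF (log2 fold change 1.77, SE 0.20, adjusted p = 4.15e-04). The groups stood far apart, with the depleted libraries between 219.7 and 237 CPM. Hspa8, the constitutive cytosolic Hsp70 gene, had 221, 309.6 and 384 CPM in depleted RPF and 157, 115 and 199 CPM in steady RPF (log2 fold change 0.96, SE 0.28, adjusted p = 0.0412). The groups did not overlap, but the highest steady library, replicate 3, was close to the lowest depleted one, replicate 1. The call for Hspa8 was lost without depleted replicate 2 (adjusted p = 0.100), depleted replicate 3 (0.139), steady RPF replicate 1 (0.109) or steady RPF replicate 2 (0.138), and under RLE (0.0509) and upper quartile scaling (0.0642). Hspa2, an Hsp70 gene best known from the testis, fell, with 13.1, 19.7 and 18.3 CPM in depleted RPF and 33.7, 35.1 and 31.5 CPM in steady RPF (log2 fold change -0.97, SE 0.21, adjusted p = 0.0117).

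Genes of 3 mitochondrial chaperones also rose. Hspa9, the gene of the matrix Hsp70 mortalin, had 618, 469.8 and 494 CPM in depleted RPF and 197, 123 and 139.7 CPM in steady RPF (log2 fold change 1.78, SE 0.20, adjusted p = 3.46e-04). Hspd1, which encodes Hsp60, had 136, 119 and 119 CPM in depleted RPF and 41.9, 36.1 and 41.1 CPM in steady RPF (log2 fold change 1.65, SE 0.16, adjusted p = 1.67e-04). Its neighbour Hspe1, which encodes the lid protein Hsp10, had 28.0, 30.8 and 33.0 CPM in depleted RPF and 11.8, 7.54 and 9.92 CPM in steady RPF (log2 fold change 1.65, SE 0.27, adjusted p = 0.00234). In all 3 genes the lowest depleted library exceeded the highest steady library by more than 2 times, and the rises passed with each library left out. The neighbours, which share the heat shock element letters printed above, had equal folds on the log2 scale to 2 decimals. They overlap by 112 exon bases on opposite strands, so some reads could have been given to either. Of 10 tested members whose products are known to work in mitochondria, these 3 rose and 0 fell. That is 30% called, against 21% of all tested genes. Among 11 further mitochondrial partners 4 rose and 0 fell, including Grpel1, the nucleotide exchange factor of Hspa9, at 154 ± 14.3 CPM in depleted RPF and 86.5 ± 3.66 CPM in steady RPF (SD, n = 3 each, log2 fold change 0.83, SE 0.14, adjusted p = 0.00253). The proteases Lonp1, Clpp and Afg3l2 had log2 fold changes of 0.83, 1.01 and 0.69. The share of the 11 partners called was 36.4%, against the same 21%.

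**Figure D3:**
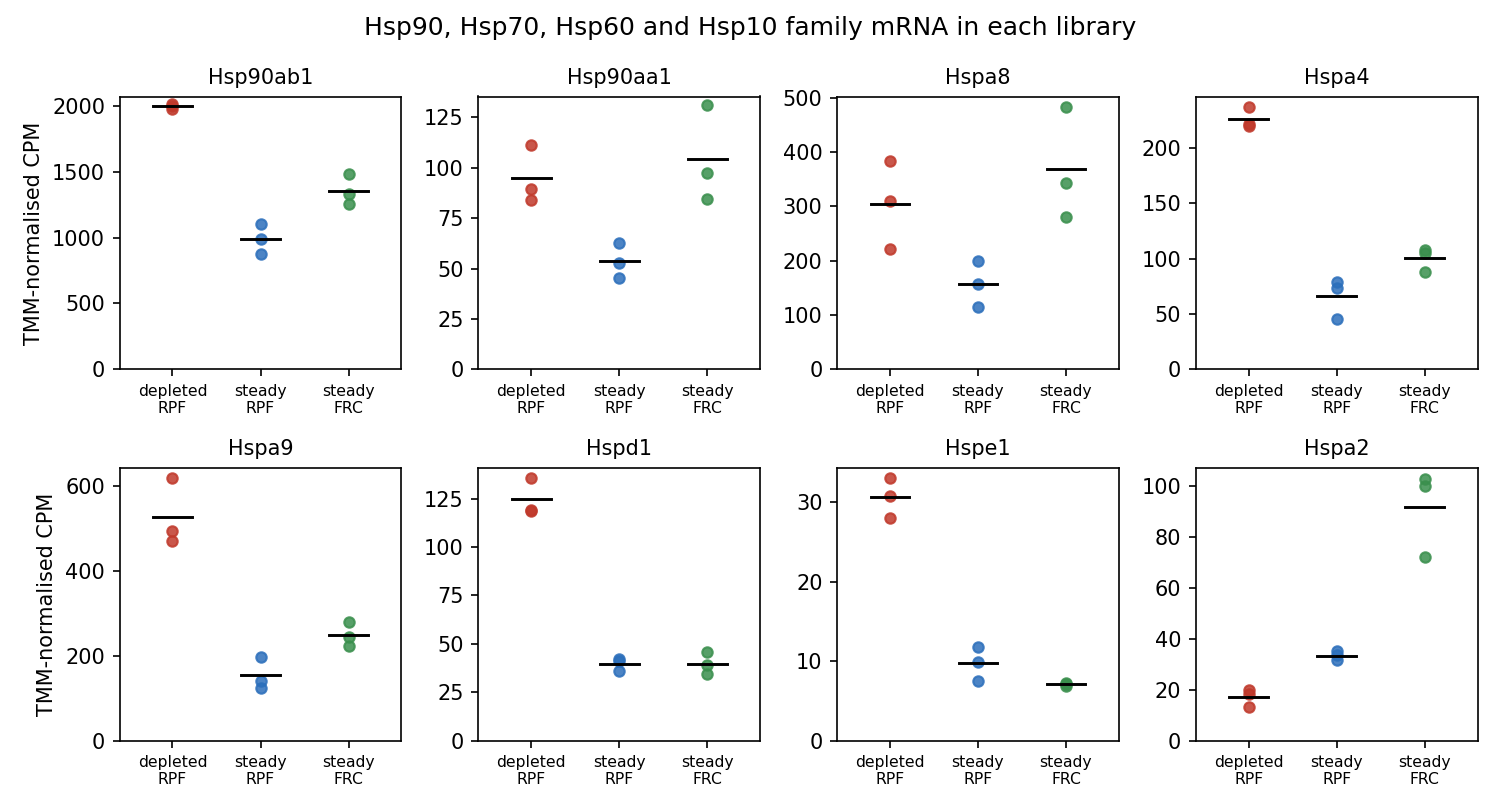
TMM-normalised CPM of 8 Hsp90, Hsp70, Hsp110, Hsp60 and Hsp10 genes in each library (points, with bars at the group means) of depleted RPF, steady RPF and steady FRC. Hspd1 lies at 119 to 136 CPM in depleted RPF and at 36.1 to 41.9 CPM in steady RPF, while Hspa2 runs the other way.

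Of 39 tested J protein genes, 5 rose and 5 fell, which is 25.6% called, near the 21% of all tested genes. Among these calls, only those for Dnajb4 and Dnajc2 held under every alternative. Dnajb4, a cytosolic J protein gene with a 2-unit element at an internal RefSeq start, had 136, 161 and 203 CPM in depleted RPF and 87.8, 67.3 and 58.9 CPM in steady RPF (log2 fold change 1.22, SE 0.21, adjusted p = 0.00361). Dnajc2, whose product sits on the ribosome and recruits Hsp70 to new chains, had 33.1, 24.0 and 28.6 CPM in depleted RPF and 11.2, 10.7 and 9.56 CPM in steady RPF (log2 fold change 1.44, SE 0.25, adjusted p = 0.00311). Both passed with each library left out, and in both every depleted library was above every steady one. Dnajc21, which acts in the making of the large ribosomal subunit, had 30.5, 25.9 and 34.1 CPM in depleted RPF and 8.75, 15.2 and 19.3 CPM in steady RPF (log2 fold change 1.07, SE 0.29, adjusted p = 0.0310). The cytosolic Dnaja2 had 297, 286 and 231 CPM in depleted RPF and 170.0, 177 and 171 CPM in steady RPF (log2 fold change 0.65, SE 0.15, adjusted p = 0.0147). Dnajc1, a J protein of the endoplasmic reticulum membrane, had 71.1, 82.1 and 70.7 CPM in depleted RPF and 41.2, 36.7 and 53.8 CPM in steady RPF (log2 fold change 0.77, SE 0.20, adjusted p = 0.0234). These last 3 had groups without overlap, but their calls were lost under some alternatives. Dnaja2 lost its call without depleted replicates 1 or 2 or steady RPF replicates 1 or 3 (adjusted p 0.0508 to 0.0543). Dnajc21 lost it without any depleted replicate or steady RPF replicates 1 or 2 (0.0534 to 0.0996), under upper quartile scaling (0.0503) and without the filter on low counts (0.0515), and Dnajc1 without the same 5 libraries (0.0532 to 0.0906).

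On the falling side, Dnajb1, the main inducible partner of Hsp70, had 98.9, 163 and 185 CPM in depleted RPF and 423, 265 and 234 CPM in steady RPF (log2 fold change -1.04, SE 0.28, adjusted p = 0.0265). Steady RPF replicate 1 was the highest, and the adjusted p was 0.0844 without it, 0.0700 without depleted replicate 1 and 0.0610 without depleted replicate 2. Dnajc9, a histone chaperone, had 8.39, 9.58 and 8.88 CPM in depleted RPF and 25.1, 40.9 and 24.2 CPM in steady RPF (log2 fold change -1.75, SE 0.45, adjusted p = 0.0235). Dnajc10, a disulfide reductase of the endoplasmic reticulum, had 137, 141 and 156 CPM in depleted RPF and 205, 189.7 and 181 CPM in steady RPF (log2 fold change -0.41, SE 0.12, adjusted p = 0.0356). None of these 3 overlapped between groups. The call for Dnajc9 was lost without any depleted replicate or steady RPF replicate 2 (adjusted p 0.0675 to 0.0974), and that for Dnajc10 without any of the 6 RPF libraries (0.0519 to 0.116) and without the filter on low counts (0.0664). Dnajc12 was low, at 1.67, 2.67 and 0.982 CPM in depleted RPF and 7.37, 7.46 and 5.39 CPM in steady RPF (log2 fold change -1.93, SE 0.58, adjusted p = 0.0439), and lost its call without any of the 6 but depleted replicate 2 (0.0794 to 0.125) and without the filter on low counts (0.128). Dnajc6, the gene of auxilin, had 1 count over the 3 depleted RPF libraries and 32 over the 3 steady ones, a 29.2-fold difference scaled by library size, with a 95% counting interval of 4.88 to 1189. The interval covers counting error only, and the steady libraries themselves held 2, 16 and 14 counts. Dnajc6 lost its call without depleted replicates 2 or 3 or steady RPF replicates 2 or 3 (adjusted p 0.0613 to 0.0776) and with limma-voom (adjusted p = 0.12).

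None of the 7 small heat shock protein genes passed the test, with 5 whose groups did not overlap, against 44.4% of all tested genes. Hspb8, the partner of Bag3, had 67.0, 114 and 95.1 CPM in depleted RPF and 56.5, 37.4 and 60.7 CPM in steady RPF (log2 fold change 0.84, SE 0.40, adjusted p = 0.178). Hspb8 did pass with limma-voom and in a fit of the 2 compared groups alone (lowest adjusted p 0.03985). Hspb1, the gene of Hsp25, had 23.0, 30.5 and 32.7 CPM in depleted RPF and 30.7, 14.9 and 17.3 CPM in steady RPF (log2 fold change 0.45, SE 0.31, adjusted p = 0.368), and these overlap. Log2 fold changes of the other 5 ran from -1.85 for Hspb2 to 1.81 for Hspb7. Of the 6 BAG genes, 16.7% were called, against 21% of all tested genes. Bag1 rose, with 147, 153 and 183 CPM in depleted RPF and 110.1, 107 and 114 CPM in steady RPF (log2 fold change 0.55, SE 0.13, adjusted p = 0.0155). Its adjusted p was 0.0641 without depleted replicate 3, 0.0548 without steady RPF replicate 1 and 0.0633 without steady RPF replicate 2. Bag3 had 35.6, 43.6 and 55.9 CPM in depleted RPF and 65.9, 48.9 and 38.5 CPM in steady RPF (log2 fold change -0.18, SE 0.21, adjusted p = 0.624), with overlapping groups.

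Other heat-inducible genes did not pass the test after depletion. Hspa1a had 49.9, 102 and 116 CPM in depleted RPF and 208, 134 and 133 CPM in steady RPF (log2 fold change -0.83, SE 0.31, adjusted p = 0.0911), and Hspa1b had 44.2, 95.2 and 112 CPM in depleted RPF and 188, 117 and 121 CPM in steady RPF (log2 fold change -0.76, SE 0.34, adjusted p = 0.160). Both were lower in every depleted library than in any steady one without passing the test. Hspa1a did pass with DESeq2 (adjusted p = 0.0303), while Hspa1b passed under no alternative. These neighbours on chromosome 17 differ at 8 of 1923 aligned coding bases (99.58% identity), and the stretch printed for Hspa1a has the same letters in Hspa1b, so how reads were split between them is uncertain. Hsph1, an inducible Hsp110 gene with a 3-unit element, had 51.3, 71.1 and 106 CPM in depleted RPF and 73.2, 48.5 and 76.5 CPM in steady RPF (log2 fold change 0.20, SE 0.36, adjusted p = 0.763), with overlapping groups. Dnaja1, a cytosolic J protein gene, overlapped too, with 52.6, 48.2 and 60.9 CPM in depleted RPF and 69.7, 53.6 and 49.1 CPM in steady RPF (log2 fold change -0.0916, SE 0.19, adjusted p = 0.808). Of 4 tested genes for heat shock factors and their binding protein, 0 passed in either comparison, and Hsf1 averaged 71.9 ± 6.999 CPM in depleted RPF, 56.2 ± 6.99 CPM in steady RPF and 72.7 ± 15.0 CPM in FRC (SD, n = 3 each). Cells were released by 40 min of enzyme digestion, and 20 immediate early genes that are known to respond to such handling were summed as well. The sums of these genes were 11150 to 15817 CPM in depleted RPF and 6177 to 10800 CPM in steady RPF. Of the 20, 9 were higher and 0 lower, which is 45% called, against 21% of all tested genes. Their part in these results was not tested.

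Without steady RPF replicate 1 and FRC replicate 1, the libraries with few Y-linked reads, 15 of the 80 genes rose (18.8%) and 2 fell (2.5%) after depletion, by edgeR's quasi-likelihood test. Of all 15628 genes then tested, 8.04% were higher and 6.16% lower. The 7 CCT genes were among those that rose. Calls were lost for Hspa8 (adjusted p = 0.137), Dnajc1 (0.103), Dnajc21 (0.0885), Dnaja2 (0.0684) and Bag1 (0.0638) among the genes that had risen. Among those that had fallen they were lost for Dnajc12 (0.142), Dnajb1 (0.109), Dnajc10 (0.0977), Dnajc9 (0.0607) and Hspa2 (0.0535). Of the 10 tested members listed for the endoplasmic reticulum, Dnajc1 had risen and Dnajc10 had fallen in the fit of all 9 libraries. That is 20% called, near the 21% of all tested genes.

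The second comparison, steady RPF against steady FRC, sets untreated fibroblasts of the spleen against those of the lymph node. Sums over several marker lists differed without overlap. The neutrophil list summed to 46.4 to 303 CPM in steady RPF and 0.921 to 6.53 CPM in FRC. An erythroid list summed to 168 to 725 CPM in steady RPF and 0.507 to 99.1 CPM in FRC. Lower in steady RPF were a T cell list (0 to 1.75 CPM, against 9.52 to 18.8 CPM in FRC) and the fibroblast list. The latter summed to 5257 to 5943 CPM in steady RPF and 47548 to 50384 CPM in FRC. Their part in the chaperone results was not tested. The smallest p-values were those of 2 heat-inducible cochaperones: Bag3 and Dnajb1 were far lower in steady RPF, and with them Dnajb4, Hspa2, Hspa8 and Hsp90aa1. Of 7 small heat shock protein genes, Hspb8, Hspb1 and Hspb7 were higher in steady RPF and 0 were lower, but each of these 3 calls was lost under some alternative. Of the 80 tested genes, 9 were higher and 16 lower in steady RPF by edgeR's quasi-likelihood test at an adjusted p under 0.05. That is 31.2% called, against 25.9% of all tested genes, of which 11.5% were higher and 14.4% lower. Groups did not overlap for 41 of the 80, against 44.6% of all tested genes. The median log2 fold change was -0.097 over the 80 genes and -0.022 over all tested genes, so the chaperone genes as a whole lay near the rest. Both comparisons share the steady RPF libraries and so are not independent of each other.

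Bag3, which works with Hspb8 in sorting misfolded proteins to autophagy, had 65.9, 48.9 and 38.5 CPM in steady RPF and 577, 606 and 591 CPM in FRC (log2 fold change -3.53, SE 0.24, adjusted p = 1.02e-05). Every FRC library was at more than 8 times the highest steady RPF library. Dnajb1 had 423, 265 and 234 CPM in steady RPF and 1724, 1386 and 1699 CPM in FRC (log2 fold change -2.38, SE 0.29, adjusted p = 3.32e-04). Dnajb4 had 87.8, 67.3 and 58.9 CPM in steady RPF and 210.2, 156 and 216 CPM in FRC (log2 fold change -1.44, SE 0.21, adjusted p = 0.00115). Neither J protein gene overlapped between the groups, and all 3 calls held with each library left out. In the mm10 table Bag3 spans chr7:128523616-128546981, Dnajb1 chr8:83608193-83612653 and Dnajb4 chr3:152178511-152210302.

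Hspa8 had 157, 115 and 199 CPM in steady RPF and 342, 280.2 and 484 CPM in FRC (log2 fold change -1.23, SE 0.28, adjusted p = 0.0123), and Hsp90aa1 had 62.7, 53.0 and 45.2 CPM in steady RPF and 131, 97.4 and 84.6 CPM in FRC (log2 fold change -0.96, SE 0.21, adjusted p = 0.00904). Hsp90ab1 had 1104, 875 and 985 CPM in steady RPF and 1482, 1251 and 1331 CPM in FRC (log2 fold change -0.46, SE 0.11, adjusted p = 0.0157). None of the 3 overlapped, and each steady RPF library was below each FRC library. The call for Hsp90ab1 was lost without steady RPF replicate 2 (adjusted p = 0.0599), steady RPF replicate 3 (0.0547) or FRC replicate 1 (0.0530) under upper quartile scaling (0.0866) and in a fit of the 2 compared groups alone (0.0681), and that for Hspa8 without the 2 libraries with few Y-linked reads (0.0717). Dnaja1 was lower as well, with 69.7, 53.6 and 49.1 CPM in steady RPF and 126, 89.9 and 97.4 CPM in FRC (log2 fold change -0.86, SE 0.20, adjusted p = 0.0114), and had an adjusted p of 0.0509 without steady RPF replicate 3. Hspa1a had 208, 134 and 133 CPM in steady RPF and 227, 205 and 180.4 CPM in FRC (adjusted p = 0.436), Hspa1b had an adjusted p of 0.530 and Hsph1 of 0.227. These 3 inducible genes overlapped between the groups.

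The 20 immediate early genes were all lower in steady RPF, which is 100% called, against 25.9% of all tested genes. Their sum was 6177 to 10800 CPM in steady RPF and 53274 to 60285 CPM in FRC. Their part in the lower Bag3, Dnajb1 and Dnajb4 was not tested. Of the 13 members known as HSF1-inducible, 2 were higher and 6 lower in steady RPF, which is 61.5% called, against 25.9% of all tested genes.

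**Figure D4:**
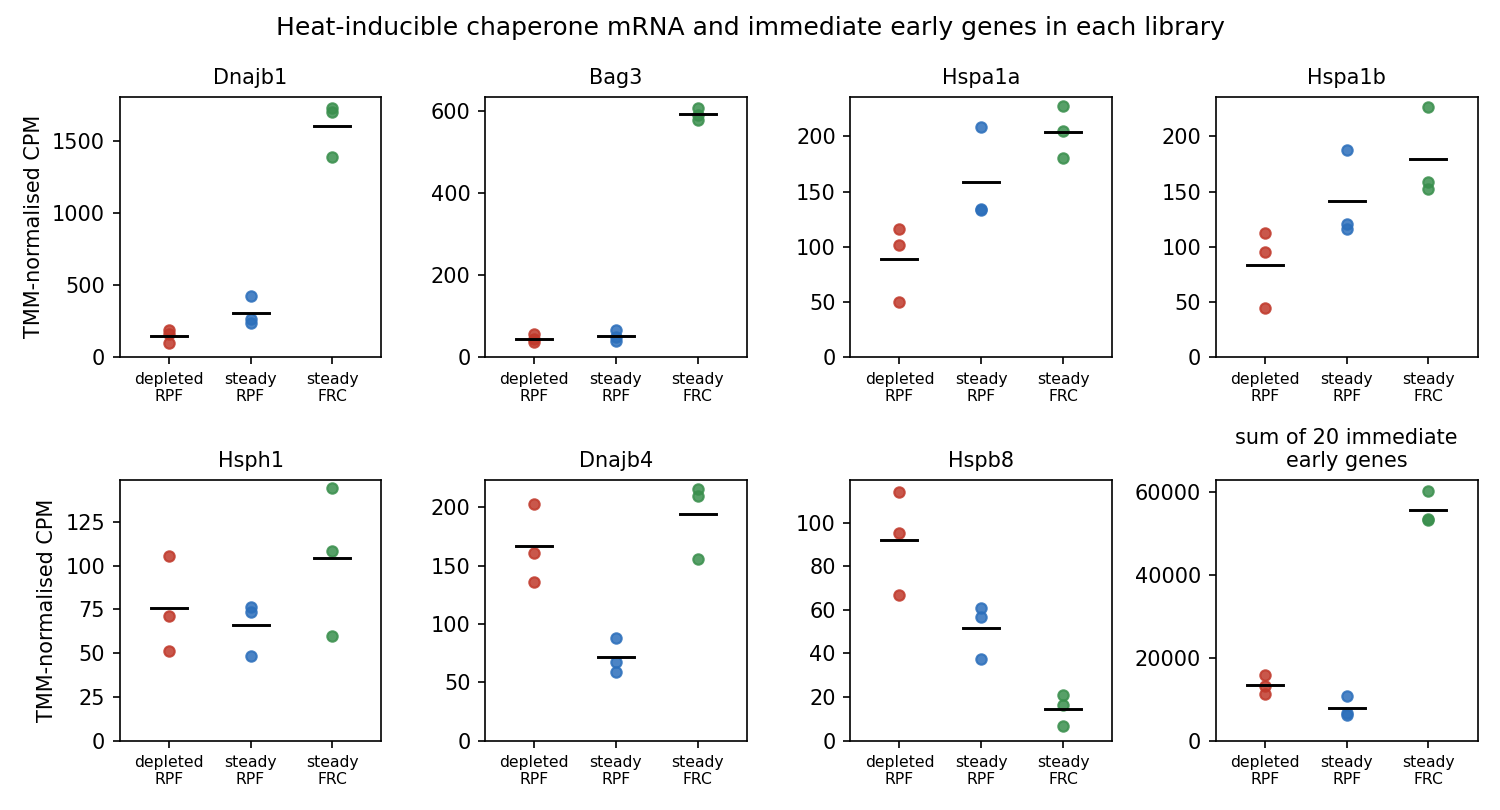
TMM-normalised CPM of 7 heat-inducible chaperone genes and the sum over 20 immediate early genes (last panel) in each library (points, with bars at the group means) of depleted RPF, steady RPF and steady FRC. Bag3, Dnajb1 and the immediate early sum are high in FRC and low in both RPF groups, while Hspb8 is lowest in FRC.

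Hspa2 had 33.7, 35.1 and 31.5 CPM in steady RPF and 100.1, 103 and 72.3 CPM in FRC (log2 fold change -1.46, SE 0.21, adjusted p = 0.00111), with no overlap. The mitochondrial Hspa9 had 197, 123 and 139.7 CPM in steady RPF and 223, 243 and 280.0 CPM in FRC (log2 fold change -0.70, SE 0.19, adjusted p = 0.0265), but its adjusted p was 0.0929 without steady RPF replicate 2, 0.0979 without steady RPF replicate 3, 0.0553 without FRC replicate 2, 0.0825 without FRC replicate 3, 0.0592 under upper quartile scaling and 0.0569 in a fit of the 2 compared groups alone. Hspa4 had 73.9, 79.1 and 45.7 CPM in steady RPF and 87.9, 108 and 105 CPM in FRC (log2 fold change -0.60, SE 0.20, adjusted p = 0.0551). It passed with the 1 CPM filter, DESeq2, limma-voom or without steady RPF replicate 2 (lowest adjusted p 0.0328), but in the main fit it did not pass. The matrix chaperonin genes did not pass either: Hspd1 had 41.9, 36.1 and 41.1 CPM in steady RPF and 34.4, 39.0 and 45.6 CPM in FRC (adjusted p = 0.996), and Hspe1 had 11.8, 7.54 and 9.92 CPM in steady RPF and 7.16, 7.20 and 6.86 CPM in FRC (adjusted p = 0.242). The Hsp110 gene Hspa4l was higher in steady RPF, with 43.0, 96.7 and 69.9 CPM in steady RPF and 7.83, 0.444 and 0.0895 CPM in FRC (log2 fold change 4.64, SE 1.24, adjusted p = 0.0239). Its FRC libraries were widely spread, and the call was lost without steady RPF replicates 2 or 3 or FRC replicate 2 (adjusted p 0.0544 to 0.0654) and without the filter on low counts (0.0764).

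The CCT genes were not called in 1 direction between the tissues. Cct3 was higher, with 320.0, 317 and 319 CPM in steady RPF and 209, 258 and 227 CPM in FRC (log2 fold change 0.46, SE 0.11, adjusted p = 0.0112). Cct4 was lower, with 133, 117 and 109 CPM in steady RPF and 166, 185 and 173 CPM in FRC (log2 fold change -0.54, SE 0.11, adjusted p = 0.00707). For both genes the groups did not overlap. Tcp1 was lower, with 108, 91.8 and 109 CPM in steady RPF and 137, 152 and 156 CPM in FRC (log2 fold change -0.53, SE 0.14, adjusted p = 0.0245), and so was Cct5, with 347, 291 and 345 CPM in steady RPF and 416, 449 and 420.1 CPM in FRC (log2 fold change -0.39, SE 0.11, adjusted p = 0.0303). Cct2 (adjusted p = 0.0693), Cct7 (0.0887), Cct8 (0.417) and Cct6a (0.487) did not pass. Cct2 was called lower with DESeq2 (adjusted p = 0.0398) and without FRC replicate 3 (0.0486). Of the 4 calls, that for Cct4 held under all alternatives. That for Cct5 was lost without any 1 of the 6 steady libraries (adjusted p 0.0537 to 0.107), under upper quartile scaling (0.17), without the filter on low counts (0.0741) and in a fit of the 2 compared groups alone (0.0922). That for Tcp1 was lost without any of the 6 but FRC replicate 1 (0.0567 to 0.0937) and under upper quartile scaling (0.0875), and that for Cct3 without the 2 libraries with few Y-linked reads (0.0829). Beside the folds of 2.26 to 3.27 after depletion, those between the tissues were 1.11 to 1.46 in either direction.

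Small heat shock protein genes were higher in steady RPF in 3 of 7 cases and lower in 0, which is 42.9% called, against 25.9% of all tested genes. Hspb8 had 56.5, 37.4 and 60.7 CPM in steady RPF and 16.2, 6.72 and 21.03 CPM in FRC (log2 fold change 1.81, SE 0.41, adjusted p = 0.0108), while its partner Bag3 was lower in the same libraries. Hspb1 had 30.7, 14.9 and 17.3 CPM in steady RPF and 10.9, 9.66 and 11.3 CPM in FRC (log2 fold change 0.98, SE 0.31, adjusted p = 0.0479). Hspb7, a gene best known from heart muscle, had 3.87, 3.55 and 0.992 CPM in steady RPF and 0.395, 0.0341 and 0 CPM in FRC (log2 fold change 4.26, SE 1.29, adjusted p = 0.0390). No group overlapped in these 3 genes. The call for Hspb1 was lost without any of the 6 steady libraries but steady RPF replicate 2 (adjusted p 0.0671 to 0.186), without the filter on low counts (0.0772), with limma-voom (0.0983) and in a fit of the 2 compared groups alone (0.0742). That for Hspb7 was lost without steady RPF replicates 1 or 2 or FRC replicates 2 or 3 (0.0516 to 0.0927) and in a fit of the 2 compared groups alone (0.11), and that for Hspb8 without the 2 libraries with few Y-linked reads (0.0706).

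Among the 39 tested J protein genes, 4 were higher and 7 lower in steady RPF, which is 28.2% called, against 25.9% of all tested genes. Dnajc6 was the lowest relative to FRC, with 0.0426, 0.316 and 0.463 CPM in steady RPF and 17.7, 21.5 and 24.3 CPM in FRC (log2 fold change -6.28, SE 0.98, adjusted p = 0.00151). Auxilin, its product, recruits Hsp70 to strip clathrin coats from vesicles. Dnajc14, of the endoplasmic reticulum membrane but outside the list for that compartment, was higher, with 82.0, 104 and 102 CPM in steady RPF and 36.7, 59.6 and 33.4 CPM in FRC (log2 fold change 1.15, SE 0.23, adjusted p = 0.00549). Dnajc8, a protein of the spliceosome, had 112, 144 and 131 CPM in steady RPF and 61.2, 77.4 and 37.1 CPM in FRC (log2 fold change 1.14, SE 0.24, adjusted p = 0.00849). None of these 3 overlapped, and all 3 passed with each library left out. Dnajc14 shares 16.99% of its exon bases with Ormdl2 on the other strand, so its reads are uncertain to that extent. Dnajc11, of the mitochondrial inner membrane organising machinery, had a log2 fold change of 0.97 (adjusted p = 0.0254) that was lost without steady RPF replicates 1 or 2 or FRC replicates 1 or 2 (0.0721 to 0.0926). Dnajb3 was the remaining higher gene, with 430 counts over the 3 steady RPF libraries and 2 over the 3 FRC libraries. That is a 161-fold difference scaled by library size, with a 95% counting interval of 44.3 to 1334 that covers counting error only. The 430 counts fell on the steady libraries as 185, 186 and 59.

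The remaining lower J protein genes were Dnajc10, Dnajc21 and Dnajc25, at log2 fold changes of -0.46, -1.21 and -1.22. Dnajc10 lost its call without steady RPF replicates 2 or 3 or FRC replicate 1 (adjusted p 0.0613 to 0.0779), under upper quartile scaling (0.0986), without the filter on low counts (0.0549) and in a fit of the 2 compared groups alone (0.0653). Dnajc25 lost it without any of the 6 steady libraries but FRC replicate 3 (0.0596 to 0.0919), under upper quartile scaling (0.0514) and without the filter on low counts (0.0853). No prefoldin gene passed. Outside the 84 genes, the cochaperone list had 1 higher and 0 lower gene of 23, the Hsp90 and calcyclin-binding protein gene Cacybp at 96.7 ± 9.77 CPM in steady RPF and 39.6 ± 9.59 CPM in FRC (SD, n = 3 each, log2 fold change 1.29, SE 0.19, adjusted p = 9.89e-04). Of the 15 actin and tubulin genes 1 was higher and 8 were lower in steady RPF, among them Tuba1a at 95.1 ± 13.4 CPM in steady RPF and 552 ± 65.2 CPM in FRC (log2 fold change -2.54, SE 0.18, adjusted p = 1.54e-05). The share called was 60% of these 15 and 4.35% of the 23 cochaperones, against 25.9% of all tested genes.

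Without steady RPF replicate 1 and FRC replicate 1, 5 of the 80 genes were higher (6.25%) and 11 lower (13.8%) in steady RPF by edgeR's quasi-likelihood test. Of all 15628 genes then tested, 7.22% were higher and 9.67% lower, so the share of chaperone genes that were higher lay near that of all genes. Besides Cct3, Cct5 (adjusted p = 0.0804), Tcp1 (0.0667), Hspa8 and Hspb8, the calls for Hspb1 (0.237), Dnajc25 (0.155), Dnajc11 (0.152), Dnajc10 (0.0835) and Dnajc21 (0.0615) were then lost. Bag3 had an adjusted p of 0.000199 and Dnajb1 of 0.00166 in those 7 libraries.

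Set side by side, the genes followed more than 1 order over the 3 groups. Cct8 averaged 657 ± 22.6 CPM in depleted RPF, 207 ± 26.7 CPM in steady RPF and 231 ± 23.9 CPM in FRC (SD, n = 3 each), which is highest after depletion, with no call between the untreated groups. Hspd1 had the same order, with 125 ± 9.79, 39.7 ± 3.15 and 39.7 ± 5.66 CPM in depleted RPF, steady RPF and FRC. Dnajb4 was high in depleted RPF and in FRC and low in steady RPF, at 167 ± 34.1, 71.3 ± 14.9 and 194 ± 33.0 CPM. Hspa8 had that order too, at 305 ± 81.9, 157 ± 42.5 and 369 ± 104 CPM in depleted RPF, steady RPF and FRC, and its depleted libraries overlapped those of FRC. Dnajb1 and Hspa2 were lowest in depleted RPF and highest in FRC: Dnajb1 averaged 149 ± 44.8 CPM in depleted RPF, 307 ± 102 CPM in steady RPF and 1603 ± 188 CPM in FRC.

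Levels of different genes were compared per kilobase of the median transcript length given in the table. On this scale Hsp90ab1 was the highest of the 84 genes in each group, at 2876 ± 27.4 CPM per kb in depleted RPF, 1424 ± 165 in steady RPF and 1952 ± 169 in FRC (SD, n = 3 each). Although CCT holds its subunits in equal number, their mRNA levels per kb were unequal. Cct5 was the highest, at 1135 ± 89.0 CPM per kb in depleted RPF, 401 ± 39.4 in steady RPF and 524 ± 22.3 in FRC, and Cct8 came next, at 953 ± 32.8, 301 ± 38.7 and 335 ± 34.7. Cct4 came after them in every group, at 501 ± 23.9 CPM per kb in depleted RPF, 201 ± 20.6 in steady RPF and 293 ± 16.9 in FRC. Below it in depleted RPF, Cct7, Cct3 and Cct2 lay within 1 SD of each other, at 385 ± 23.6, 383 ± 20.2 and 381 ± 31.1 CPM per kb. The lowest was Cct2 in both RPF groups and Cct3 in FRC, at 123 ± 13.0 CPM per kb. The highest subunit stood at 2.98 times the lowest in depleted RPF, 3.07 times in steady RPF and 4.26 times in FRC. The median length averages over annotated transcripts, short ones included, so the order between genes depends on it, while a gene's own fold between groups does not.

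**Figure D5:**
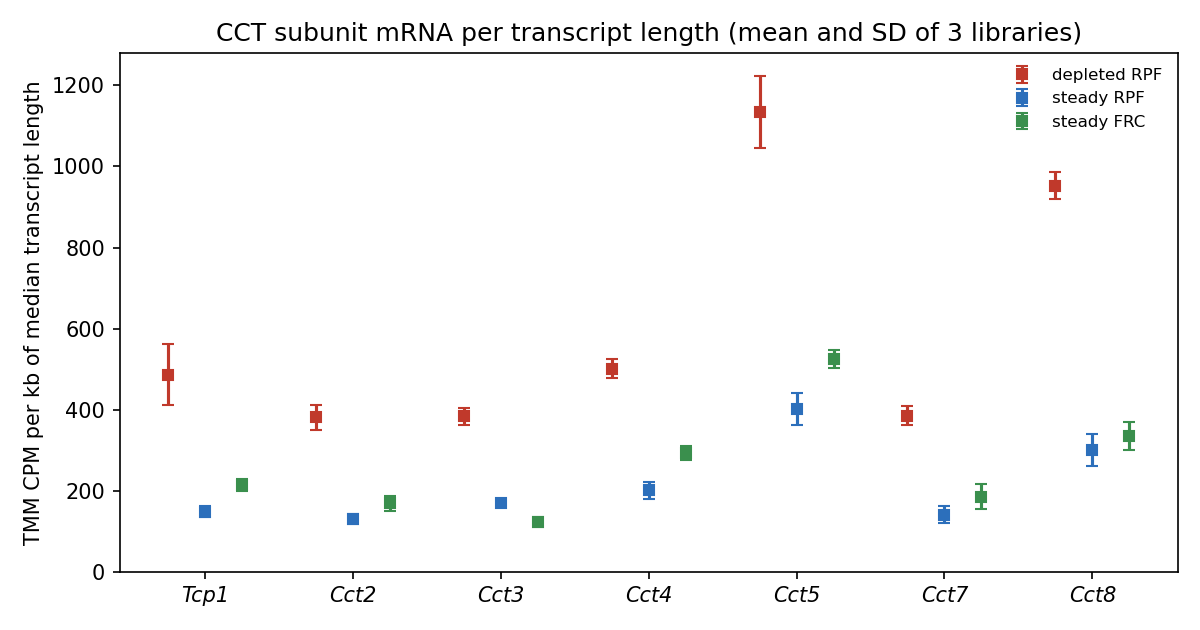
Mean TMM CPM per kb of median transcript length of the 7 tested CCT genes in depleted RPF, steady RPF and steady FRC (squares, with bars of 1 SD over 3 libraries). Cct5 and Cct8 are the highest in every group, and every subunit is highest in depleted RPF.

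The 4 genes left out of the tests were nearly silent. Dnajb7 had 10 counts in steady RPF replicate 3 and 0 in the other 8 libraries, and Dnajb8 had 3 and 8 counts in steady RPF replicates 1 and 3 alone. Hspa1l, the testis member of the Hsp70 cluster on chromosome 17, had 0, 7 and 8 counts in depleted RPF, 19, 0 and 0 in steady RPF, and 0, 0 and 32 in FRC. Of the 54 tested genes that were not called after depletion, 31 had a positive log2 fold change.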

How the data were processed

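PolyA RNA of 9 libraries was analysed. The authors deposited a table of raw read counts, 1 row per Ensembl gene, and these counts were used unchanged. Tools in the submitters' processing notes are HTSeq 0.6.1p1, STAR 2.5.3a, Bowtie2 2.2.8 and cutadapt 1.10, with mm10 as the build. No strand setting or annotation release was found in these sources. A further 24 per-sample columns were not used.

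Of 27370 genes, 881 had no count in the 9 libraries, and 15103 passed filterByExpr. All 9 libraries were fitted together in edgeR 4.0.16 (R 4.3.3) with TMM scaling and a robust quasi-likelihood model with 6 residual degrees of freedom. The 2 comparisons were tested two-sided, with Benjamini-Hochberg adjustment over all tested genes. Totals per library, 25414645 to 43879806, set the counting precision, and p-values measure the spread between libraries that are pools of 2 mice.

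Members, lists, tests and the rule for named genes were chosen with earlier results of these data known. Genes given in full were the CCT genes, 12 main heat shock genes and, per comparison, the 10 called members with the smallest p among those averaging 10 CPM or more in the higher group. Others are named as called members, as ends of a range or as examples of their list. The fit was repeated with DESeq2 1.42.0, with voom of limma 3.58.1, under upper quartile or RLE scaling, unfiltered or requiring 1 CPM throughout a group, without the robust prior, on the compared groups alone, and with each library omitted in turn. Leaving out both libraries with few Y-linked reads was added after seeing the data. The edgeR (TMM and RLE), voom and DESeq2 fits were tested on simulated counts. Promoters are from RefSeq (GRCm38.p6) and exon overlaps from GENCODE M21, in which 80 of the 84 genes have the coordinates of the table. Figures were drawn with matplotlib 3.10.9 in Python 3.11.15.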

Additional observations from a re-analysis of the deposited data

How the results depend on the processing

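The 7 CCT genes were higher after depletion under all alternatives, those with DESeq2 and limma-voom included. The number of members higher was 15 to 18 with 1 library left out and 18 to 25 in the other planned settings. Of the 26 calls after depletion, 14 held under every alternative, all 14 of genes that rose, and 11 were lost with some library left out. Of the 25 calls between steady RPF and FRC, 10 held (3 higher, 7 lower) and 11 were lost with some library left out. Members lower after depletion numbered 10 with limma-voom, 9 with DESeq2, 4 without the filter and 2 to 3 with 1 library left out, against 6. Without the 2 libraries with few Y-linked reads, 15 were higher and 2 lower. In steady RPF against FRC, members lower numbered 10 under upper quartile scaling and 10 to 14 with 1 library left out, against 16, and members higher 15 with DESeq2, 5 to 9 with 1 library left out and 5 without the 2 libraries, against 9. CCT genes lower numbered 1 under upper quartile scaling, 2 without the filter or in a fit of the compared groups alone, 1 to 2 with 1 library left out and 1 without the 2 libraries, against 3, and CCT genes higher 0 without the 2 libraries, against 1. The cause of these moves was not tested, apart from the fewer samples where libraries were left out. Some genes not called in the main fit passed under some alternatives. These were Hspa1a, Hspb8 and Dnajc8 after depletion, and Hspa4 and Cct2 between steady RPF and FRC. Some values that did not pass changed sign. Between steady RPF and FRC these were Cct8 under upper quartile scaling (0.0052, adjusted p = 0.985) and Hspd1 with the 1 CPM filter (-0.017), limma-voom (-0.00025), 1 library left out (-0.089 to 0.12) or both libraries with few Y-linked reads left out (-0.13). After depletion they were Hsph1 without depleted replicate 3 (-0.11, of -0.11 to 0.42 with 1 library left out), Bag3 without steady RPF replicate 1 (0.041, of -0.37 to 0.041) or both of those libraries (0.041), and Dnaja1 likewise (0.069, of -0.20 to 0.069, and 0.068). Upper quartile scaling moved the median log2 fold change of all genes between RPF and FRC to 0.14, against -0.022, and the share of higher calls to 54.2%, against 44.4%. No paired analysis was run, because the labels give no replicate numbers and do not say which libraries share mice. Few Y-linked reads fell on replicate 1 of both steady groups (24 in RPF and 69 in FRC). Most Cct6b reads fell on replicate 2 of both (115 in RPF and 74 in FRC). Whether libraries of the same number share mice was not tested, and no fit was blocked by number.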
